A study of Mus musculus with 35 samples.

Results

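Mouse tracheas grafted into recipients of matching MHC (isografts) and recovered at day 25, on 5 arrays, were compared with untransplanted native tracheas (5 arrays). These are 10 of the 35 arrays of a study of heterotopic tracheal transplantation, in which a trachea is placed at a site other than the airway. The other 25 arrays cover isografts at days 4 and 14 and MHC-incompatible allografts at days 4, 14 and 25. Every probe set that was not a control and reached a log2 intensity of 5 in at least 5 of the 10 arrays was tested, which gave 12066 of the 22626 probe sets that were not controls, covering 7525 genes. RNA came from whole tracheal tissue, and the labels name no allele or drug in either group. The strain, sex and age of the mice, the graft site and the hour of collection are not given in the sources used here. The arrays are not stated to be separate animals, so the p-values measure the spread between these arrays. The number of arrays limits the precision.

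The trachea is a tube of cartilage rings, smooth muscle and connective tissue lined by ciliated, secretory and basal cells, with mucus glands below the surface. It is surrounded by fat, strap muscle and the thyroid and parathyroid glands, pieces of which can be taken with it. A heterotopic graft loses its blood supply, airflow and nerves at transplantation, and its lining sheds and grows back from basal cells. Without an MHC mismatch such grafts are used as the non-rejecting control for the study of airway rejection.

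Markers of the labelled tissue were present in both groups. The secretory cell products Scgb1a1 and Bpifa1 lay at 14.36 to 14.53 and 14.51 to 15.04 in the native tracheas, on the log2 scale used for every level and difference here. In isografts they lay at 11.49 to 14.65 and 14.24 to 14.95. The cartilage collagen Col2a1 lay at 9.56 to 12 and 9.79 to 12.68. Replicate 5 of each group stood apart from its group: its median correlation with the other 4 arrays was 0.903 in native trachea, where the others had 0.920 to 0.942, and 0.851 in isografts, where the others had 0.922 to 0.948. The same 2 arrays held 16 genes of keratinizing squamous epithelium, a list chosen after its values were seen, at a mean of 10.97 and 9.68, while the other 8 arrays lay between 3.08 and 3.36. Counts for a list are therefore also given without both arrays where that moves them by over 1.5 times. Array medians ran from 5.18 to 5.28.

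Differences from native trachea were present in both directions. Of the 12066 probe sets, 1489 (12.3%) had a Benjamini-Hochberg adjusted p under 0.05 in limma, which is what "called", "rose" and "fell" mean below. Of these, 714 (5.92%) were higher and 775 (6.42%) lower in isografts, and 922 differed by at least 2-fold. Centring the arrays on 26 scaling reference genes moved the split to 839 higher and 586 lower. Without native replicate 1 the count was 936, the smallest with any 1 array left out. The values of the groups did not overlap for 1337 probe sets (11.1%), with 5.38% of all probe sets entirely higher and 5.7% entirely lower in isografts, and 9.29% were both called and without overlap. With 1 probe set per gene, 6.34% of the 7525 genes rose and 6.54% fell, and the median difference was -0.02. Those 2 percentages are the background against which the members of each gene list are counted. A gene that is scarce in one group can pass the filter only through the other, as did 52 probe sets with no native array at 5 and 39 with no isograft array at 5.

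The largest rises included S100a8 and S100a9 of the neutrophil list and Gpnmb and Cd68 of the macrophage list. Of 12 called genes with the largest rises and no overlap between the groups, 7 had no native array at 5 and so passed the filter through the isografts. S100a8 and S100a9 form calprotectin, a metal-binding protein abundant in neutrophils and inflammatory monocytes. S100a8 was at 3.86, 4.79, 3.46, 3.88 and 3.5 in native replicates 1 to 5 and at 12.49, 8.73, 8.42, 9.85 and 8.68 in isograft replicates 1 to 5. Isograft replicate 1 was the highest, and the lowest isograft lay above every native array. The difference was 5.73 (SE 0.67, adjusted p = 0.000471). S100a9 rose by 5.04 (SE 0.70), from 4.46 to 6.11 in native tracheas to 8.66 to 13 in isografts, with replicate 1 again the highest. Slfn4, a Schlafen-family gene of myeloid cells, showed the same spread among isografts, from 6.96 to 12.09, and rose by 5.85 (SE 0.74).

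Mmp12, the elastase of macrophages, was at 2.56, 2.84, 3.30, 2.95 and 3.88 in native tracheas and at 9.56, 7.28, 9.35, 8.26 and 8.95 in isografts. All 5 isografts were far above all 5 native tracheas, and the rise of 5.58 (SE 0.41, adjusted p = 2.25e-05) was the most precise of the 3 largest. Cathepsin S (Ctss), a lysosomal protease of antigen-presenting cells, was at 8.62, 9.01, 9.07, 8.16 and 8.85 in native tracheas and at 13.20, 11.90, 12.42, 11.95 and 12.38 in isografts. It was thus well above the filter in both groups, and rose by 3.63 (SE 0.27, adjusted p = 2.25e-05).

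**Figure D1:**
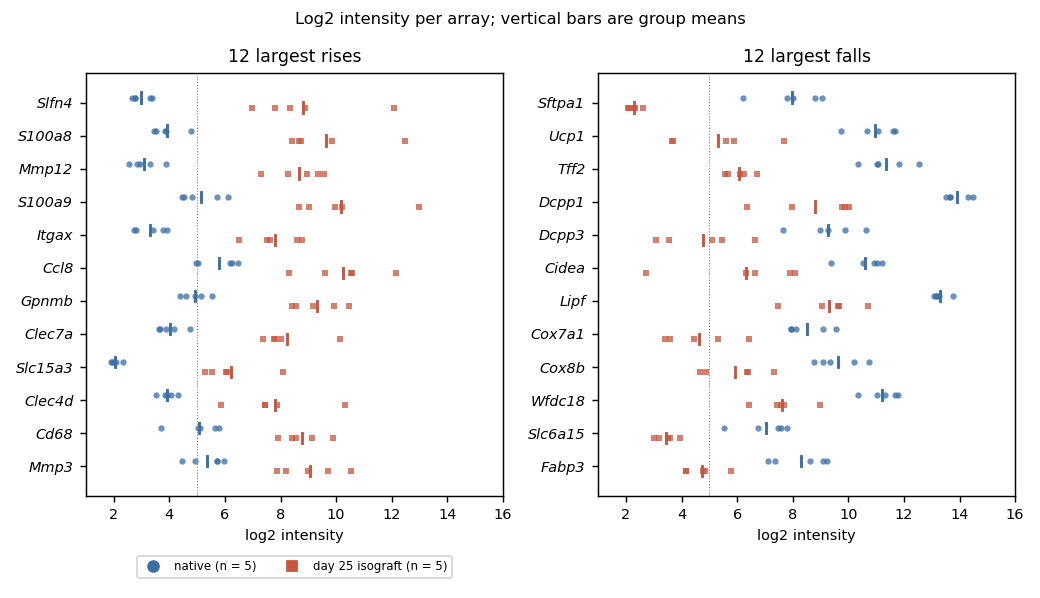
Log2 intensity in each of the 10 arrays for the 12 largest rises (left) and 12 largest falls (right). Circles are native tracheas, squares day 25 isografts, vertical bars group means, and the dotted line marks the filter at 5. The groups do not overlap for any of these genes, which the choice of genes required.

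The other large rises came from several lists or none. Itgax, the integrin CD11c of dendritic cells and some macrophages, rose by 4.48 (SE 0.41), from 2.74 to 3.90 to between 6.5 and 8.78. Gpnmb, a glycoprotein of lipid-laden and lysosome-rich macrophages, rose by 4.39 (SE 0.39), and the lysosomal macrophage marker Cd68 by 3.72 (SE 0.43). The fungal receptors Clec7a (Dectin-1) and Clec4d rose by 4.21 (SE 0.46) and 3.86 (SE 0.62). Slc15a3, a lysosomal peptide transporter, rose by 4.15 (SE 0.43) from near 2 in all native arrays. The monocyte-attracting chemokine Ccl8 rose by 4.46 (SE 0.60), and the matrix protease Mmp3 by 3.71 (SE 0.48). Isograft replicate 1 was the highest of its group for Itgax, Gpnmb, Cd68, Clec7a, Clec4d, Slc15a3 and Mmp3, and replicate 5 for Ccl8.

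Macrophage genes were higher across most of their list. Of 35 measured members 28 passed the filter, and 22 of these rose and none fell, beside 6.34% of all genes. The median difference was 1.93 over those 28 and 1.85 over all 35, of which 32 were higher, and 3 members passed the filter with no native array at 5. The number of rises stayed between 20 and 22 with any 1 array left out. The mean level of the list ran from 5.69 to 6.21 in native tracheas and from 7.06 to 8.58 in isografts. Ptprc, the pan-leukocyte antigen CD45, rose by 2.03 (SE 0.43, adjusted p = 0.0109), although native replicate 3 at 8.81 lay just above the lowest isograft at 8.77. In bulk tissue more cells of a type and more RNA per cell cannot be told apart.

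Of 18 neutrophil genes 9 passed the filter, 3 of them with no native array at 5, and 6 rose. Over all 18 members the median difference was 0.98, and 16 were higher. The list level was 7.03 in isograft replicate 1 and 5.03 to 5.59 in the other 4 isografts, beside 3.85 to 4.19 in native tracheas. The number of rises was 5 or 6 with any 1 array left out.

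Genes that phagocytes use to take up and digest material were higher too. They were described with lists chosen after their values were seen. Of 8 phagocyte C-type lectins 4 passed the filter, 3 of them with no native array at 5, and 4 rose. Of 11 lysosomal cathepsins 7 rose, among them Ctsk, the collagen-degrading cathepsin K, by 1.82 (SE 0.28). The cathepsin count was 4 without native replicate 1 or without isograft replicate 3, and 5 without replicate 5 of both groups. Ncf4, a subunit of the phagocyte NADPH oxidase, rose by 2.54 (SE 0.42). All 3 oxidase genes that passed rose, but 1 did without isograft replicate 1 or 3, and 2 without replicate 5 of both groups. Slc11a1, the phagosomal metal transporter, rose by 2.52 (SE 0.35), and Slc40a1, the iron exporter ferroportin, by 2.41 (SE 0.35). C3ar1, the receptor for complement fragment C3a, rose by 3.4 (SE 0.44), from 3.60 to 5.93 in native tracheas to 7.57 to 9.54 in isografts.

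Promoter windows of 3 of these genes are shown because each holds the motif GAGGAAGT, the core of the site bound by PU.1, the transcription factor that directs macrophage and neutrophil development. Windows run from 250 bases before to 50 bases after the annotated start, from RefSeq on GRCm38.p6, and are written along the plus strand, which is the strand of all 3 genes. S100a8 is at chr3:90668821-90669120, Mmp12 at chr9:7344147-7344446 and Ctss at chr3:95526536-95526835. Capitals mark the motif, which in all 3 lies on the other strand and so reads ACTTCCTC.
S100a8: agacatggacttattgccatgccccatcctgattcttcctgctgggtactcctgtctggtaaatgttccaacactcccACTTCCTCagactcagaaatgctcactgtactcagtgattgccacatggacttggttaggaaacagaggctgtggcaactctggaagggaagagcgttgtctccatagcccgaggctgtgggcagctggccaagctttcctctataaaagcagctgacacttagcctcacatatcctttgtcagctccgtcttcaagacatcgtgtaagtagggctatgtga
Mmp12: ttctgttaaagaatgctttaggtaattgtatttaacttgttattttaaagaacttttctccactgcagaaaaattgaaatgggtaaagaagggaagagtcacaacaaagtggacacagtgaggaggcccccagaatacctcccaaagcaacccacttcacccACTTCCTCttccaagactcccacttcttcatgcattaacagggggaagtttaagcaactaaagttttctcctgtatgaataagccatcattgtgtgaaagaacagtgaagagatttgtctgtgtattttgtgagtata
Ctss: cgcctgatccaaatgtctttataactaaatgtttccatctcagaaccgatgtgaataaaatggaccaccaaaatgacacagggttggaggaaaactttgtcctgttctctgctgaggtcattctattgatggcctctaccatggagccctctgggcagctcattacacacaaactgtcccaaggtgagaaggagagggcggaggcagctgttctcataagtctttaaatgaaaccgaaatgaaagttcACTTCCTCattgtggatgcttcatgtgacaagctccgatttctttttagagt

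Searched on both strands, the 8 bases occurred in 887 of 27025 gene windows (3.28%). They occurred in 2 of the 11 windows found for the 12 largest rises (18.2%) and in 3 of the 15 found for the 22 macrophage genes that rose (20%). The 27025 windows include genes not tested here, so these are not shares of like sets, and the smaller sets hold 2 and 3 matches. A match describes these letters only, and no binding was measured.

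**Figure D2:**
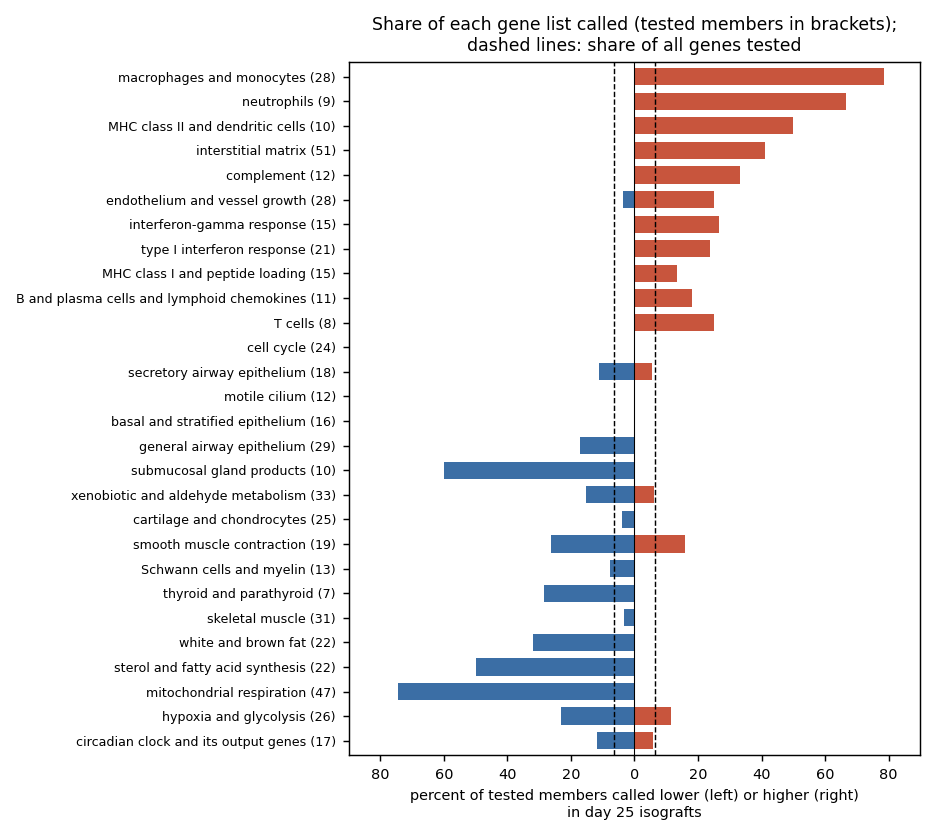
Share of the tested members of the plotted gene lists that were called higher (right, red) or lower (left, blue) in day 25 isografts, with the number tested in brackets. Dashed lines are the shares of all 7525 genes, 6.34% higher and 6.54% lower. The plot leaves out the lists chosen after values were seen and some chosen before. Among the latter are cytotoxic and NK cell genes (1 tested, 1 higher) and genes linked to strain (3 tested, 3 higher). Of the lists plotted, macrophage genes extend furthest to the right and mitochondrial respiration genes furthest to the left.

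Genes of antigen presentation rose in part, and lymphocyte genes less clearly. Of 10 MHC class II and dendritic cell genes that passed, of 24 measured, 5 rose, and the count was 4 to 6 with any 1 array left out. Fscn1, the actin-bundling protein of mature dendritic cells, rose by 1.97 (SE 0.30), although a second probe set for it differed by 0.95 with an adjusted p of 0.0815. Of 15 MHC class I and peptide loading genes 2 rose, and 1 did without native replicate 4, isograft replicate 1 or isograft replicate 3. Without replicate 5 of both groups 3 rose and 1 fell. Tap1, the peptide transporter, was 4.59 to 6.05 in native tracheas and 6.39 to 7.35 in isografts, and rose by 1.54 (SE 0.27).

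Of 23 measured T cell genes 8 passed the filter, and Il7r, the interleukin-7 receptor, rose by 2.54 (SE 0.35) and the chemokine Ccl5 by 1.80 (SE 0.40). The T cell receptor chain Cd3e lay below the filter, at 4.42 to 5.08 in native tracheas and 4.4 to 5.20 in isografts. The groups overlapped fully. Of 21 cytotoxic genes only granzyme A (Gzma) passed, from 4.54 to 5.54 to between 5.86 and 6.87, and it rose by 1.31 (SE 0.24). Ighm, the IgM heavy chain, differed by 0.91 (SE 0.89, adjusted p = 0.547). Native replicate 3 had the highest Ighm at 8.82 and isograft replicate 5 the lowest at 4.27.

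Some interferon-responsive genes were higher. Of 15 interferon-gamma response genes 4 rose, among them the guanylate-binding protein Gbp7 by 1.04 (SE 0.20), and 2 did without native replicate 4. Of 21 type I interferon genes 5 rose, led by Trim30a, a restrainer of inflammatory signalling, by 2.18 (SE 0.38) and Ifit2, an antiviral RNA-binding protein, by 2.16 (SE 0.47). That count was 3 without replicate 5 of both groups, 8 without isograft replicate 2, and 2 or 3 without any 1 of the 5 native arrays or of isograft replicates 1, 3 and 4. The T cell-attracting chemokine Cxcl9 lay below the filter, at 3.35 to 4.21 in native tracheas and 4.14 to 6.5 in isografts.

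Among interstitial matrix genes 21 of the 51 that passed rose, 30 were not called and none fell. The proteases Mmp12 and Mmp3 described above belong to this list. Its members had a median difference of 0.81, and 46 of all 52 measured members were higher. The count was 10 without native replicate 1, and 18 rose with 2 falls and a median of 0.50 without replicate 5 of both groups. The list level was 8.63 to 8.98 in native tracheas and 9.19 to 10.42 in isografts, with isograft replicate 5 the highest. Col1a1, a chain of type I collagen, was at 10.19, 10.57, 10.19, 11.79 and 10.98 in native tracheas and at 12.47, 11.80, 12.88, 12.16 and 13.70 in isografts. The lowest isograft lay only just above the highest native array, and the rise was 1.86 (SE 0.39, adjusted p = 0.00976). A second Col1a1 probe set differed by 0.07 (adjusted p = 0.933), and the mean of both was not called.

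Of 22 imprinted and juvenile growth genes 2 rose, 1 fell and 19 were not called, near the background shares. The count of rises was 4 without isograft replicate 1. Igf1, the insulin-like growth factor made by stromal cells and macrophages, rose by 1.65 (SE 0.27), from 7.82 to 9.45 to between 9.77 and 10.40, and of its other probe sets 1 rose and 1 differed by 0.91 (adjusted p = 0.104). Igfbp4, which binds it, rose by 0.93 (SE 0.21), and of its other probe sets, all higher, some were called and some were not. Gnas, a G protein subunit, fell by 0.59 on the log2 scale (SE 0.16, adjusted p = 0.0368). It was no longer called when native replicate 1, 2, 3 or 4 or isograft replicate 1, 2 or 4 was removed (highest adjusted p 0.082). Angpt2, the vessel-destabilizing angiopoietin, was at 3.72 to 4.58 in native tracheas and 5.41 to 6.30 in isografts, and rose by 1.64 (SE 0.23, adjusted p = 0.00114). Pdgfrb and Notch3, receptors of pericytes and vascular smooth muscle, rose by 1.25 (SE 0.22) and 0.74 (SE 0.17). A second Pdgfrb probe set differed by 0.70 (adjusted p = 0.117). Of 28 endothelial and vessel growth genes 7 rose and 1 fell. The count of rises was 2 without native replicate 1 or 2, 3 without native replicate 3 or 4, and 4 without isograft replicate 1, 3 or 4. Without replicate 5 of both groups 5 rose and none fell. The endothelial marker Pecam1 itself differed by -0.03 (SE 0.56, adjusted p = 0.98), with native replicate 5 at 2.99 and the other native arrays at 4.89 to 6.62.

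Genes of mitochondrial respiration fell together. All 47 members passed the filter, 35 fell and none rose, beside 6.54% of all genes that fell, and all 47 were lower, with a median difference of -1.0. With any 1 array left out 28 to 34 fell, and without replicate 5 of both groups 34 did. The list level was 10.54, 10.48, 10.57, 10.93 and 10.69 in native tracheas and 9.66, 9.90, 9.52, 9.73 and 9.53 in isografts, so the groups did not overlap. Idh3a, a subunit of the citric acid cycle enzyme isocitrate dehydrogenase, was at 10.52, 10.67, 10.52, 11.04 and 10.74 in native tracheas and at 8.78, 9.22, 8.50, 8.96 and 8.09 in isografts. It fell by 1.99 (SE 0.22, adjusted p = 0.0004), and both other probe sets for it also fell. Ogdh, a subunit of oxoglutarate dehydrogenase, fell by 1.99 (SE 0.36).

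Enzymes of fatty acid oxidation in mitochondria, a list chosen after its values were seen, changed in the same direction. Of 19 that passed 16 fell, with a median of -1.51, and the count was 15 to 17 with any 1 array left out. Acadvl, the first enzyme of the pathway for long chains, was 10.08 to 10.98 in native tracheas and 8.07 to 8.54 in isografts, and fell by 2.27 (SE 0.20, adjusted p = 7.58e-05). Hadha, the trifunctional enzyme that follows it, fell by 2.32 (SE 0.35). Pdk4, which shuts glucose carbon out of mitochondria during fasting and under glucocorticoids, fell by 3.07 (SE 0.53).

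Fat genes were also mostly lower in isografts. Ucp1, the protein that makes brown fat mitochondria release heat, was at 11.07, 10.65, 11.59, 11.67 and 9.75 in native tracheas and at 5.90, 7.69, 3.67, 5.62 and 3.70 in isografts. It fell by 5.63 (SE 0.70, adjusted p = 0.000706). Cidea, a lipid droplet protein of brown fat, fell by 4.29 (SE 0.85), a call lost when the spread was taken from all 35 arrays. Cox7a1 and Cox8b, cytochrome oxidase subunits of brown fat and muscle, fell by 3.88 (SE 0.55) and 3.69 (SE 0.53), and Fabp3, a fatty acid carrier of the same tissues, by 3.54 (SE 0.46). Of all 22 fat genes that passed, 7 fell and none rose, with a median of -1.35. The count was 4 without native replicate 1, native replicate 4 or isograft replicate 3, and 14 fell and 1 rose without replicate 5 of both groups. The list level was 9.06 to 9.97 in native tracheas and 8.54, 8.98, 7.97, 8.61 and 6.08 in isografts. The part of fat, or of the skeletal muscle described below, in the fall of the respiration and fatty acid oxidation genes was not tested.

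**Figure D3:**
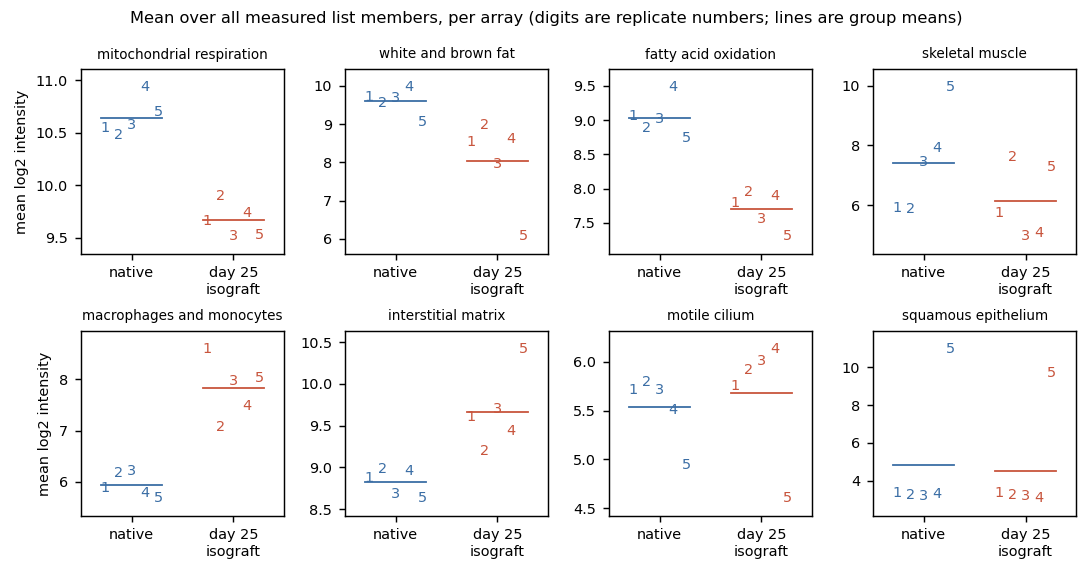
Mean log2 intensity over all measured members of 8 gene lists in each array. Digits are replicate numbers and lines are group means, and each panel has its own vertical range. Respiration, fat, fatty acid oxidation, macrophage and matrix levels do not overlap between native tracheas and isografts, and the squamous genes are high in replicate 5 of both groups alone.

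Of 22 sterol and fatty acid synthesis genes 11 fell and none rose, with a median of -0.91 over those and -0.81 over all 28 measured. The count was 9 to 12 with any 1 array left out. Elovl6, which lengthens fatty acids, was at 9.38, 10.22, 10.26, 9.93 and 9.50 in native tracheas and at 8.12, 7.66, 5.91, 7.21 and 5.68 in isografts. It fell by 2.94 (SE 0.44, adjusted p = 0.0018), as did its second probe set. White fat also makes fatty acids, and the part of the fat levels above in this fall was not tested.

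Hypoxia, glycolysis, metal and redox genes were mixed. Of 26 hypoxia and glycolysis genes 6 fell and 3 rose. Aldoa, a glycolytic aldolase abundant in muscle, fell by 1.45 (SE 0.22), as did all 3 of its other probe sets, whose probes may be shared with related sequences. Adm, the vasodilator peptide adrenomedullin, rose by 1.87 (SE 0.33). The number of rises was 1 without isograft replicate 4. Of 25 iron, heme, metal and redox genes 2 fell, near the background share, and 2 rose, Slc11a1 and Slc40a1 named above. The number of falls was 5 without native replicate 5 and 4 without replicate 5 of both groups. Mitochondrial superoxide dismutase (Sod2) fell by 1.01 (SE 0.17) and the epithelial glutathione peroxidase Gpx2 by 1.47 (SE 0.20). The groups did not overlap in either.

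Genes of the gland list were lower. The list level was 6.75, 8.16, 7.05, 6.90 and 7.13 in native tracheas and 5.04 to 5.91 in isografts. Car6 and Pip, below the filter, ran from 2.50 to 11.25 and from 3.39 to 11.44 in native tracheas. Their native means of 4.38 (SD 3.84) and 5.26 (SD 3.47) lay far below those highest values, which do not describe most native arrays. In isografts Car6 and Pip reached 2.92 and 4.08. Which gland these products came from was not tested. Of 19 gland genes 10 passed the filter, and 6 fell and none rose, with a median of -1.42 over those 10 and -0.85 over all 19. The count was 5 to 7 with any 1 array left out, and 5 without replicate 5 of both groups. Tff2, a trefoil peptide of mucous glands, was at 11.83, 11.04, 11.05, 12.53 and 10.34 in native tracheas and at 6.70, 5.55, 6.25, 6.09 and 5.66 in isografts. It fell by 5.31 (SE 0.38), the smallest adjusted p of the named genes at 1.92e-05. Dcpp1, a salivary-type secreted protein, was at 13.50, 13.65, 13.67, 14.30 and 14.48 in native tracheas and at 9.89, 10.03, 7.97, 9.76 and 6.35 in isografts. It fell by 5.12 (SE 0.63), and its near-identical relative Dcpp3, whose probes may share its signal, by 4.52 (SE 0.69).

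Other secreted products fell with them. Lipf, an acid lipase secreted by glands of the stomach and tongue, fell by 3.98 (SE 0.47), from 13.07 to 13.75 to between 7.47 and 10.71. Wfdc18, a small secreted protein of the WAP family, fell by 3.60 (SE 0.42). Sftpa1, surfactant protein A, which binds microbes in the airways, was at 8.02, 9.05, 8.80, 7.79 and 6.21 in native tracheas and at 2.63, 2.28, 2.08, 2.34 and 2.10 in isografts. The isograft values are the low end of the scale, and the difference of -5.69 (SE 0.44, adjusted p = 2.96e-05) depends on the authors' background model. A second Sftpa1 probe set, below the filter, differed by -1.42. Slc6a15, an amino acid transporter, also had no isograft array at 5 and fell by 3.58 (SE 0.39).

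Genes of cilia and of basal cells were mostly not called, as were most genes tested, of which 6.34% rose and 6.54% fell. A gene without a call is not thereby shown to be at its native level. Of 12 motile cilium genes that passed none was called in limma. With no adjustment 1 had a p under 0.05, which was called lower with the spread of all 35 arrays, and 1 rose and 1 fell without replicate 5 of both groups. Foxj1, the master gene of motile cilia, was at 9.14, 7.94, 7.89, 7.06 and 5.06 in native tracheas and at 7.64, 8.03, 8.09, 8.20 and 6.68 in isografts. The groups overlapped, and the difference was 0.31 (SE 0.62, adjusted p = 0.785). Of 16 basal and stratified epithelial genes none was called in limma, 3 had an unadjusted p under 0.05, 1 rose with the spread of all 35 arrays, and 2 fell without isograft replicate 5 or without replicate 5 of both groups. The basal keratin Krt5 differed by -0.54 (SE 0.70, adjusted p = 0.665) and was highest in replicate 5 of both groups, at 10.60 and 11.34.

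Of 18 secretory genes that passed 1 rose and 2 fell, and 2 rose and 4 fell without replicate 5 of both groups. With 1 array left out 0 to 3 fell, the lowest without native replicates 1, 2, 3 or 4 or isograft replicates 1 or 2, and 1 without isograft replicate 3 or 4. Gabrp, a subunit of the GABA receptor in epithelia, differed by -0.98 (SE 0.30, adjusted p = 0.0499), just inside the threshold. It lost its call without any 1 array but native replicate 5 (highest adjusted p 0.114). A second Gabrp probe set differed by -0.73 (adjusted p = 0.3). Lcn2, the iron-scavenging lipocalin of epithelium and neutrophils, rose by 3.16 (SE 0.58), from 4.04 to 7.17 to between 7.75 and 9.88. Muc5b, the gel-forming mucin of glands and secretory cells, was 11.33 to 11.82 in native tracheas and 7.49 to 11.15 in isografts and fell by 1.90 (SE 0.52, adjusted p = 0.0349). The Muc5b call was lost without any 1 of native replicates 1 to 4 or isograft replicates 1 and 2 (highest adjusted p 0.0794). Scgb1a1 differed by -0.66 (SE 0.50, adjusted p = 0.416), with isograft replicate 5 at 11.49 and the other isografts at 14.18 to 14.65. Bpifa1 differed by -0.14 (SE 0.19) and Epcam, an adhesion protein of epithelial cells, by -0.60 (SE 0.41). Neither was called.

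General epithelial genes were lower in 26 of 35 cases, and of 29 that passed 5 fell and none rose. The count was 3 without native replicate 1, isograft replicate 2 or isograft replicate 3, and 2 without native replicate 3. Of 33 genes for the metabolism of foreign chemicals and aldehydes, 5 fell and 2 rose. Akr1c18, an aldo-keto reductase that inactivates progesterone, fell by 1.87 (SE 0.24) with no overlap. Cyp1b1, a cytochrome P450 also made by stromal cells, rose by 2.29 (SE 0.40). The number of rises was 1 without any 1 native array or isograft replicate 3, 4 or 5. The number of falls was 9, beside 1 rise, without replicate 5 of both groups. It was 8 without native replicate 5, 3 without isograft replicate 2 or 3, 2 without native replicate 4, and 1 without native replicate 1, 2 or 3 or isograft replicate 1 or 4.

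Of 19 smooth muscle genes that passed 5 fell and 3 rose. The rises were of Pdgfrb and Notch3, named above, and of Cald1, the actin-binding protein caldesmon, by 0.71 (SE 0.17), which is named here after its value was seen. The intermediate filament desmin (Des), shared with skeletal muscle, was at 8.46, 8.32, 8.56, 9.01 and 9.03 in native tracheas and at 6.29, 7.42, 6.86, 6.68 and 8.29 in isografts, and fell by 1.57 (SE 0.34, adjusted p = 0.0111). That call was lost with the spread of all 35 arrays. Acta2, smooth muscle actin, differed by -0.67 (SE 0.22, adjusted p = 0.0711), and the smooth muscle myosin Myh11 by -1.25 (SE 0.46, adjusted p = 0.104). The number of falls was 10 without native replicate 5 and 11 without replicate 5 of both groups. It was 3 without native replicates 1, 2, 3 or 4 or isograft replicate 1, and 2 without isograft replicate 3.

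Cartilage genes were mostly not called, near the background shares of 6.34% higher and 6.54% lower over all genes tested. Of 25 that passed 1 fell, or 2 without native replicate 3, and 1 rose without replicate 5 of both groups. This was Prg4, the lubricant of joint surfaces, which fell by 1.82 (SE 0.32), from 9.63 to 10.81 to between 7.45 and 9.32. Col2a1 differed by 0.01 (SE 0.53, adjusted p = 0.995) and Acan, the cartilage proteoglycan aggrecan, by -0.44 (SE 0.40, adjusted p = 0.517).

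Markers of adjoining tissue varied among arrays. Skeletal muscle genes were at a mean of 5.92, 5.89, 7.45, 7.92 and 9.94 in native tracheas and at 5.75, 7.63, 4.98, 5.09 and 7.28 in isografts. The groups overlapped, and of 31 members that passed, all lower, only Pygm, muscle glycogen phosphorylase, was called (-3.13, SE 0.84, adjusted p = 0.0329). The Pygm call was lost without native replicate 3 or 4 or isograft replicate 1, 3 or 4 (highest adjusted p 0.0771), and 3 members fell without isograft replicate 2 or 5, or without replicate 5 of both groups. Thyroid and parathyroid genes had mean levels of 7.73 to 8.57 in native tracheas and 5.35 to 7.37 in isografts. The thyroid enzymes Dio1 and Iyd fell by 3.18 (SE 0.62) and 2.37 (SE 0.50), and 4 of the 7 members fell without replicate 5 of both groups.

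Tg, the thyroid hormone precursor, differed by -1.15 (SE 0.39, adjusted p = 0.0756), and parathyroid hormone (Pth) by -0.85 (SE 0.67, adjusted p = 0.443). Isograft replicate 5 was the lowest in both, at 11.60 and 8.79. The other isografts had Pth at 12.66 to 12.78, within the native range of 12.41 to 13.12. They had Tg at 13.42 to 13.97, and all isografts lay below the native Tg range of 14.36 to 14.68. Scg2, a granin of neurons and endocrine cells, fell by 2.51 (SE 0.45). Of 36 measured neuron genes 5 passed and 2 fell, or 1 without replicate 5 of both groups, while 25 of the 36 were higher. Gjb1, a gap junction protein of myelinating Schwann cells, thyroid and other epithelia, fell by 2.23 (SE 0.46). Its groups overlapped, with isograft replicate 2 at 6.70 and native replicate 2 at 6.17. Of 13 Schwann cell genes that passed only Gjb1 fell, near the background share, and 3 fell without replicate 5 of both groups.

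Circadian genes differed in some arrays. Arntl, the core clock activator also called Bmal1, was at 6.47, 7.0, 7.22, 5.86 and 6.77 in native tracheas and at 6.0, 5.1, 3.5, 3.96 and 3.81 in isografts. Of the isografts, replicate 1 alone reached the native range. The difference was -2.20 (SE 0.45, adjusted p = 0.00892) and stayed called with any 1 array left out. Dbp, a transcription factor that clock activators switch on, ran the other way, at 3.4, 4.16, 4.64, 7.03 and 6.81 in native tracheas and at 5.50, 8.97, 10.55, 10.84 and 9.65 in isografts. It rose by 3.89 (SE 1.00, adjusted p = 0.0267), as did its second probe set by 2.87. That call was lost without native replicates 1, 2 or 3 or isograft replicates 3 or 4 (highest adjusted p 0.0684). Npas2, a partner of Arntl, fell by 1.38 (SE 0.33), with an adjusted p of 0.053 without native replicate 1. Of 17 clock and output genes these 3 were called, and 4 rose without isograft replicate 1. Since the hour of collection is not given, the hour and the graft cannot be told apart here.

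**Figure D4:**
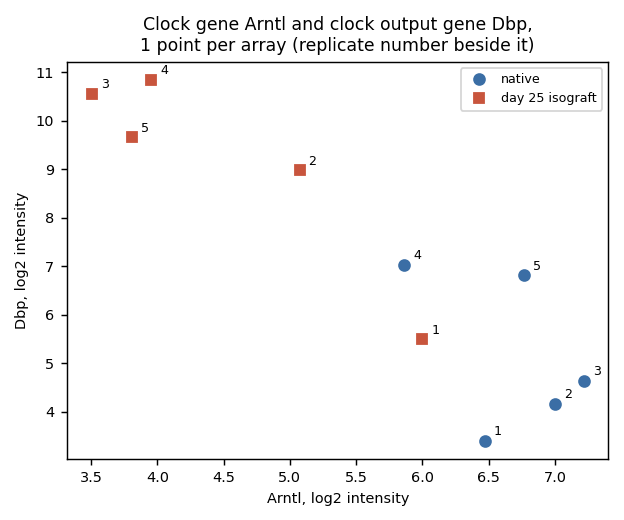
Log2 intensity of Dbp (vertical) against Arntl (horizontal) in each of the 10 arrays, with the replicate number beside each point. Isograft replicates 2 to 5 lie at high Dbp and low Arntl, and isograft replicate 1 lies among the native tracheas.

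Cell cycle genes depended on the fit. None of the 24 that passed was called in limma, although 54 of all 57 measured members were higher, with a median difference of 0.46. With no adjustment 9 had a p under 0.05, and 7 rose with the spread of all 35 arrays. Without native replicate 3, or without native replicate 5, 4 rose, and 1 rose without replicate 5 of both groups. Among the list of scaling reference genes, chosen as genes that most cells use, 1 of 26 was called, the respiratory subunit Sdha, which also belongs to the respiration list (-1.22, SE 0.31, adjusted p = 0.0236). Sdha was not called without native replicate 3 or isograft replicate 3 (highest adjusted p 0.059), and 2 reference genes fell without replicate 5 of either group or of both. The X-linked RNA Xist ran from 2.99 to 8.51 in native tracheas and from 3.01 to 6.87 in isografts, and differed by 0.32 (SE 1.01).

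Earlier isografts were set beside these values to ask whether day 25 differed from them. In the fit of the 20 native and isograft arrays, none of the 12066 probe sets was called between days 25 and 14 (0%). Of these 713 had an unadjusted p under 0.05, which chance alone gives for about 1 in 20 probe sets. None was called with the spread of all 35 arrays. Between days 25 and 4, 2517 were called (20.9%). The filter used native and day 25 arrays only, so genes present only in earlier isografts are left out of both shares. Of the 12 largest rises over native trachea 4 were called between days 25 and 4, and of the 12 largest falls 2. Itgax and Gpnmb were higher at day 25, by 2.39 (SE 0.35) and 2.17 (SE 0.32). Slfn4 and Clec4d were lower at day 25, with differences of -2.25 (SE 0.62) and -1.88 (SE 0.50).

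The 2 falls called between days 25 and 4 were both of secreted products and were smaller at day 25. Other falls were also smaller in the day 25 means, without a call in this fit. Examples were Cidea by 2.22 (SE 1.16) and Dcpp3 by 1.42 (SE 0.56). Cidea values overlapped, at 2.74 to 8.82 on day 4 and 2.71 to 8.07 on day 25. Dcpp3 was called in limma with the spread of all 35 arrays (adjusted p = 0.0199). Lipf was at 13.29 (SD 0.27) in native tracheas, 2.45 (SD 0.69) at day 4, 8.4 (SD 1.31) at day 14 and 9.31 (SD 1.19) at day 25, a difference of 6.86 (SE 0.55) between days 25 and 4. Dcpp1 was at 13.92 (SD 0.44), then 5.68 (SD 0.84), 6.73 (SD 0.97) and 8.80 (SD 1.6), a difference of 3.12 (SE 0.60). Tff2 was at 5.25 (SD 0.32) at day 4 and 6.05 (SD 0.47) at day 25 and was not called between them (adjusted p = 0.167). Sftpa1 stayed between 2.28 and 2.37 in its means at all 3 days. Scgb1a1, which was not called against native trachea at day 25, was at 11.09 (SD 0.56) at day 4 and 13.61 (SD 0.41) at day 14.

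**Figure D5:**
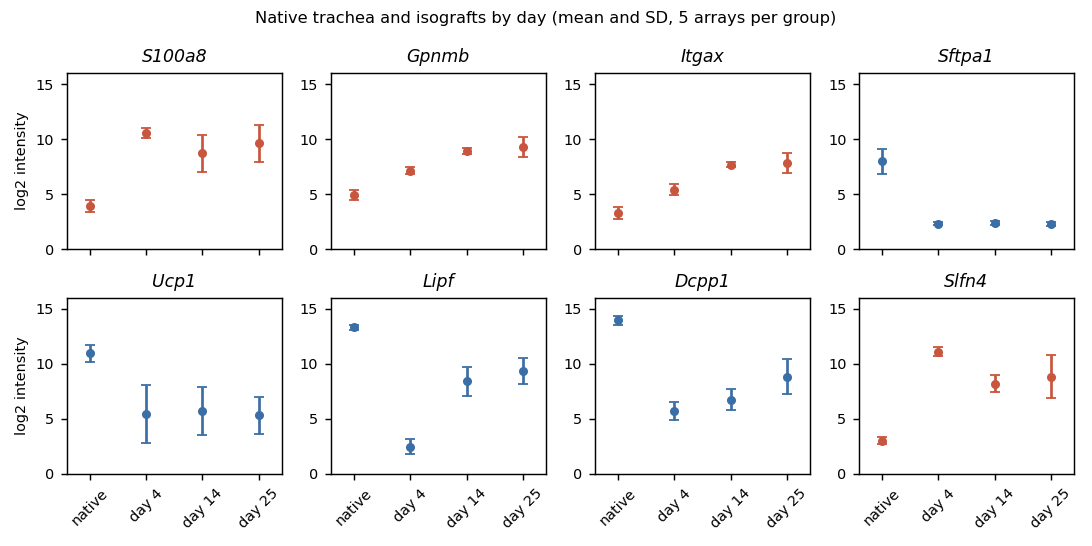
Mean and SD of log2 intensity (5 arrays per group) for 8 of the 24 genes with the largest differences, in native tracheas and in isografts at days 4, 14 and 25. Lipf and Dcpp1 lie higher at day 25 than at day 4, Slfn4 lies lower, and Sftpa1 and Ucp1 lie at a similar level at all 3 days.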

How the data were processed

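Total tracheal RNA was measured on Affymetrix arrays, 5 each of native trachea and day 25 isografts. The deposited values are log2 intensities that the authors made with GCRMA 1.1.3, per the submitters' processing notes. GCRMA subtracts a modelled background, so values near 2 to 4 and folds against them depend on that model. No further logarithm or normalization was applied. Groups came from the sample titles.

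The limma package (version 3.58.1, under R 4.3.3) fitted the group alone with its lmFit and eBayes functions, leaving 8 residual degrees of freedom, with Benjamini-Hochberg adjustment over all 12066 probe sets tested and a threshold of 0.05. Genes were named from the platform annotation, and 11089 of the probe sets tested name 1 gene, 428 several and 549 none. Where several tested probe sets name a gene, the brightest on average across the 10 arrays stands for it. Gene lists were described by counts and medians, without a test.

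The comparison, the lists and the rule for naming genes were chosen with earlier results of these data known. Among called genes without overlap between the groups, the 12 that rose most and the 12 that fell most are named, with up to 2 called members of each list in each direction, and a fixed set that includes Scgb1a1, Bpifa1, Foxj1, Krt5, Epcam, Acta2, Myh11, Col1a1, Col2a1, Acan, Pecam1, Ptprc, Cd3e, Ighm, Igkc, Cxcl9, Tg, Pth and Xist. Igkc and 1 other gene of the fixed set are not reported here. A further 5 lists (fatty acid oxidation, squamous epithelium, phagocyte lectins, NADPH oxidase, cathepsins) were added after values were seen.

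Alternatives were other filters, the spread of 20 or 35 arrays, array weights, an intensity trend, quantile normalization, 2 centrings, a replicate block, stricter thresholds, averaging the probe sets of each gene, and fits without each array in turn or without replicate 5 of both groups. Promoter windows came from RefSeq.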

Additional observations from a re-analysis of the deposited data

Results flagged for a closer look

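Single arrays stood far from their group (Dixon's test, critical value 0.71) in 17 of 224 looks at a named gene in a group. Chance flags about 1 in 20. Isograft replicate 5 was such an array for 6 genes, low for Scg2 (4.38), Tg (11.60), Pth (8.79) and Scgb1a1 (11.49) and high for Hspb1 (11.16) and Fscn1 (10.88). Native replicate 5 was for 5 genes, high for Lipf (13.75), Aldh3a1 (11.02) and Notch3 (8.32) and low for Gabrp (7.04) and Cyba (6.59). These are the 2 arrays that also held squamous epithelial genes. Isograft replicate 1 was high for Slc15a3 (8.08) and Clec7a (10.16). The other 4 were isograft replicate 4 for Acadvl (8.54, high) and native replicates 2, 4 and 1 for Gjb1 (6.17), Ccl11 (6.71) and Ifit2 (4.55), all low.

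For 6 of the 24 genes with the largest differences, the difference between isografts at days 25 and 4 was itself called in limma. It was -2.25 for Slfn4, 2.39 for Itgax, 2.17 for Gpnmb, -1.88 for Clec4d, 3.12 for Dcpp1 and 6.86 for Lipf.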

How the results depend on the processing

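Across 24 alternatives the count of 1489 (714 higher, 775 lower) was 988 with 444 higher at a log2 minimum of 7, 3086 (1392 higher, 1694 lower) with array weights, 567 (275 and 292) at an adjusted p under 0.01, and 922 (468 and 454) with a 2-fold minimum. With 1 array left out it ran from 936 to 1942, with 452 to 813 higher and 484 to 1129 lower. Native replicate 1 gave the lowest. Without replicate 5 of both groups 2225 were called, 953 higher and 1272 lower. The causes were not tested. With the replicate number as a block 1122 were called. The labels do not say whether equal numbers pair the arrays. Correlations of same-numbered deviations ran from -0.18 to 0.12, the highest for replicate 5. No isograft correlated best with its own number. Being taken over all tested probe sets, these values cannot show whether 2 arrays shared an animal or a batch.

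Of 96 called named genes none changed sign, and 61 kept their call in every alternative but the adjusted p under 0.01. With any 1 array left out 30 lost it at least once, namely Aldh1a3, Aldh3a1, Aplnr, Ccl11, Cfp, Cnn1, Cpa3, Cyba, Dbp, Epas1, Gabrp, Gadd45b, Gnas, Hal, Hspb1, Irf8, Ltb, Muc5b, Ndrg1, Npas2, Osmr, Prss8, Psmb8, Ptpn6, Pygm, Rab25, Scd1, Scg3, Sdha and Vegfa. Signs turned only for 5 genes that were never called there. Bpifa1 was 0.20 after quantile normalization and 0.003 without replicate 5 of both groups. Pecam1 was 0.009 with centring on array medians, 0.066 with centring on reference genes, and between -0.59 and 0.32 with 1 array left out. Col2a1 was -0.063 with array weights, -0.29 without replicate 5 of both groups, and between -0.39 and 0.33 with 1 array left out. Foxj1 was -0.014 without replicate 5 of both groups and between -0.28 and 0.74 with 1 array left out. Xist was -0.46 with array weights and between -0.21 and 1.17 with 1 array left out. Of the 24 largest differences, 6 were called between days 25 and 4, and 7 with all 35 arrays.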

Other observations

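Genes with a probe set that earlier results of these data linked to donor or host strain were looked at apart. Of 5 such genes 3 passed the filter and all 3 rose. Ifi44l, an interferon-induced gene, was 4.14 to 5.18 in native tracheas and 5.23 to 6.58 in isografts, a rise of 1.49 (SE 0.29, adjusted p = 0.00708 in limma). The list was chosen on these arrays, so its direction is not independent evidence. The strain of donors and hosts is not given in the sources used here. The count was 1 without native replicate 1 or 4 or isograft replicate 1, 3 or 4.

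Immediate early and heat shock genes ran higher in some native tracheas than in others, with mean levels of 9.21, 8.01, 8.10, 6.87 and 7.29, beside 7.08 to 7.76 in isografts. Native replicate 1 was the highest and replicate 4 the lowest. Of 28 that passed 1 rose and 1 fell, and 7 fell without replicate 5 of both groups, 6 without native replicate 4 and 5 without native replicate 5. None fell without native replicate 1, 2 or 3 or isograft replicate 1, 2, 3 or 4. Glucocorticoid-responsive genes had native levels of 9.64, 8.99, 8.38, 7.87 and 7.76, beside 7.87 to 8.43 in isografts.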
